A study of Danio rerio with 6 samples.

Results

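The baseline of the study was described from the 3 control libraries alone, those of embryos injected with the scrambled morpholino oligonucleotide (MO), out of 6 libraries in the series. They were chosen by their treatment label, with no measured value. Each library was a pool of whole wild-type zebrafish embryos of the Tübingen strain, injected as zygotes with 4.5 ng of the scrambled MO, a random mixture of oligonucleotides, and collected at the shield stage, 6 h after fertilization. The other 3 libraries, from embryos given an MO against FiNZ zinc finger genes (FZNFs), were not used here. Replicates 1 and 2 were collected on 1 day and replicate 3 on a later day, so that the day and the library cannot be told apart for replicate 3. The paper describes 3 injection batches, with fewer control embryos in the first batch than in the later ones. Injection batch and number of embryos cannot be told apart from the library either. No uninjected embryos were analysed here, and all values below are descriptions with no test.

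At the shield stage the zebrafish embryo is in early gastrulation. Maternal transcripts loaded into the egg are being cleared while zygotic genes set up the 3 germ layers: Nodal ligands induce mesoderm and endoderm at the margin, a BMP gradient patterns the ventral side, and the organizer on the dorsal side secretes BMP and Wnt inhibitors. A thin epithelium, the enveloping layer, covers the embryo, and the yolk syncytial layer lies beneath it. FZNFs are Cys2-His2 zinc finger genes that share an N-terminal FiNZ domain. They form a large family in carp-like fishes and have been proposed to act on transposable elements (TEs), many families of which are transcribed in the early embryo.

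Counts summed to 17131612, 19322041 and 17379435 in replicates 1, 2 and 3 over 35218 features: 32099 Ensembl genes, 684 FZNFs, 2384 TE families and 51 satellites and other repeats. A level is given in CPM, the count divided by the library's total and scaled to a total of 1000000, and 3 counts, taken as the floor of detection, correspond to 0.155 to 0.175 CPM per library. CPM is a share of reads. Since transcript lengths were not used here for Ensembl genes and TE families, the rankings below order features by the reads they took, not by transcript number. A feature is called present where it reached 1 CPM in each of the 3 libraries.

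Ensembl genes took 90.1% ± 1.0 of the counts, TE families 9.32% ± 0.974 and FZNFs 0.510% ± 0.0402 (SD, n = 3 each). Within the TEs, DNA transposon families took 4.12%, 4.47% and 4.67% of the counts in replicates 1, 2 and 3, and LTR families took 3.38%, 4.82% and 4.14%. LTR families thus varied more than DNA, LINE, SINE or rolling-circle families, and replicate 1 was the lowest library for both. LINE families took 0.424% ± 0.0515, SINE families 0.176% ± 0.00404 and rolling-circle (RC) families, the Helitrons, 0.169% ± 0.000844 (SD, n = 3 each). Counting error was small beside the spread between libraries: the exact 95% binomial interval of the LTR share, which covers counting error only, ran from 3.37% to 3.39% in replicate 1 and from 4.81% to 4.83% in replicate 2.

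**Figure D1:**
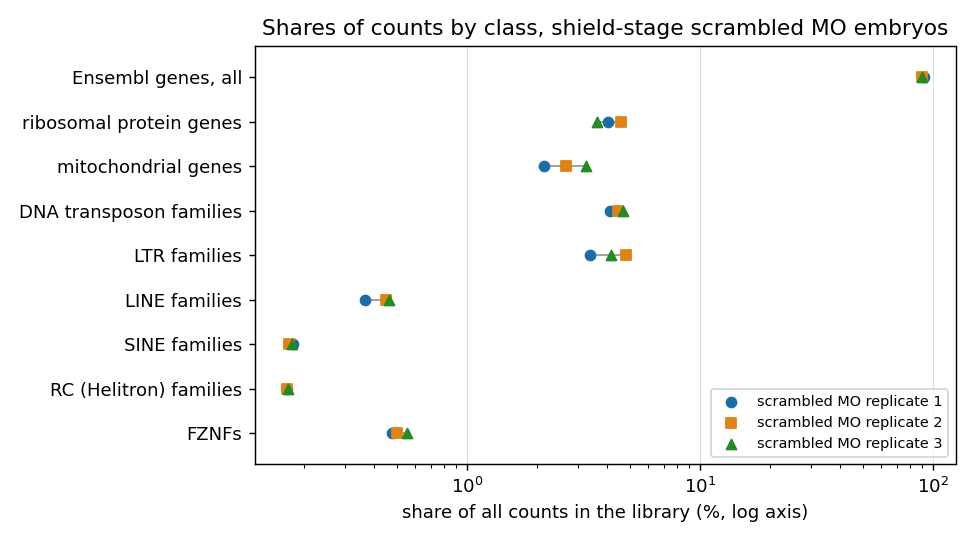
Share of all counts per library (percent, log axis) for each class of feature, with 1 marker per scrambled MO library and a line from the lowest to the highest. The Helitron and SINE markers nearly coincide, while LTR families run from 3.38% to 4.82% and mitochondrial genes from 2.15% to 3.25%.

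The Ensembl gene with the most reads was eef1a1l1, a translation elongation factor (ENSDARG00000020850), at 16283, 16996 and 15429 CPM in replicates 1, 2 and 3. It was followed by hmga1a, a high mobility group chromatin protein, at 12296, 12150 and 11337 CPM. Both kept ranks 1 and 2 in every library. MT-CO1, a mitochondrially encoded subunit of cytochrome c oxidase, took rank 3 by its mean of 7467 CPM but was spread widely, at 5063, 7422 and 9914 CPM, and ranked from 3 to 7.

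RNA-binding proteins filled much of the rest of the first 15. The hnRNP genes hnrnpa0l and hnrnpa0b averaged 7012 ± 448 and 5745 ± 644 CPM, the cold-inducible RNA-binding protein gene cirbpb 6470 ± 1039 CPM, and khdrbs1a, a KH domain protein of splicing, 5373 ± 503 CPM (SD, n = 3 each). ybx1, a cold shock domain protein stored with maternal mRNA in the egg, had 4937, 5605 and 4906 CPM. Of the 2 identifiers that carry the symbol HNRNPAB, ENSDARG00000099865 averaged 4390 ± 42.3 CPM and ENSDARG00000007960 averaged 4364 ± 463 CPM (SD, n = 3 each). As near-identical copies could share reads, the values of single hnRNP genes are uncertain. The chaperone gene hspa8 (4470 ± 605 CPM), the chromatin protein genes hmgn1a (4263 ± 346 CPM) and HMGB2 (4068 ± 378 CPM), and the mitochondrial genes MT-CO3 (3871 ± 684 CPM) and MT-CO2 (3869 ± 629 CPM; SD, n = 3 each) completed the 15.

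**Figure D2:**
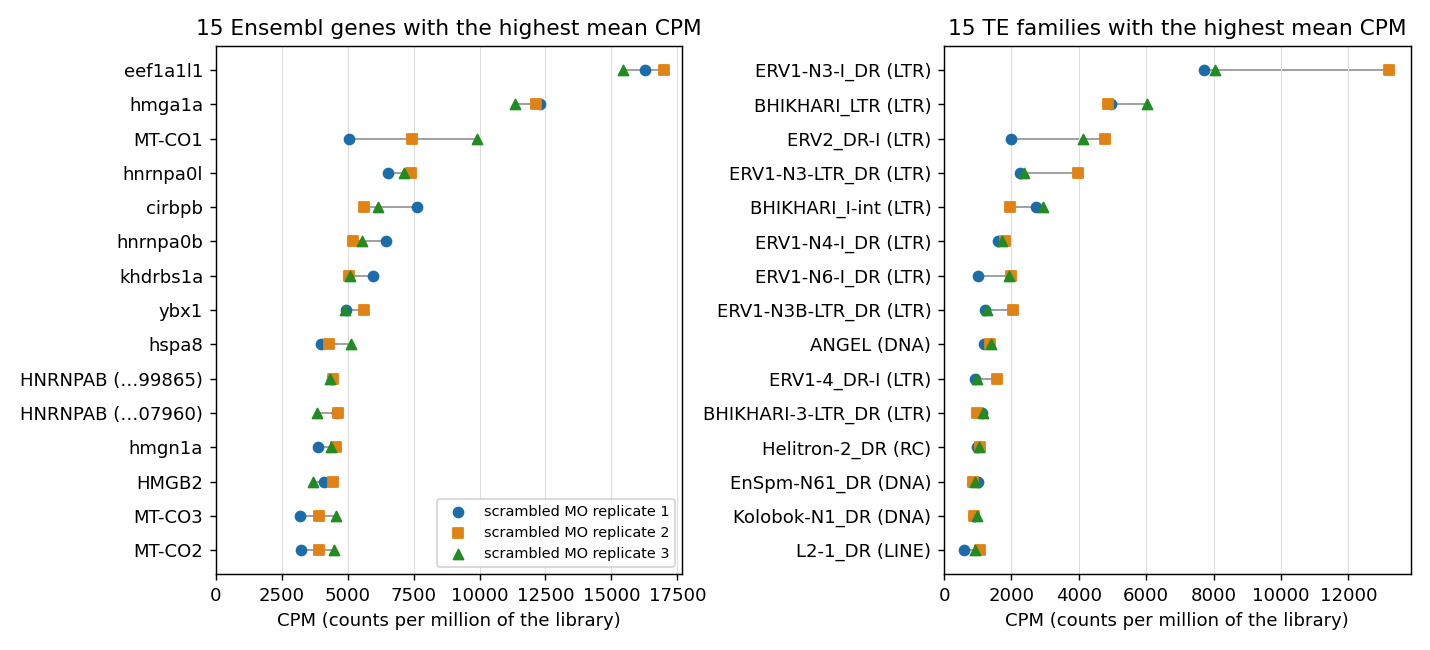
CPM in each scrambled MO library for the 15 Ensembl genes (left) and the 15 TE families (right) with the highest means; markers are libraries and lines run from the lowest to the highest. eef1a1l1 and hmga1a stand apart from the other genes, the 3 mitochondrial genes are highest in replicate 3, and ERV1-N3-I_DR reaches 13216 CPM in replicate 2.

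The counts were spread over many genes. The 10 genes with the most reads held 8.24% ± 0.162 of the counts on Ensembl genes, and the first 1000 held 63.7% ± 0.489 (SD, n = 3 each). A mean of 1000 CPM or more was reached by 106 genes, and 1686 others lay between 100 and 1000 CPM. Over the 3 libraries 12126 of 32099 Ensembl genes were present (37.8%), and 11680 had 3 counts or fewer in all (36.4%). These shares are the background for the marker lists below. The lists held 275 symbols, of which 221 matched 1 Ensembl identifier each, 51 matched none and 3 matched more than 1; those 54 symbols are in none of the list values below. Of the 221 genes, 185 were present (83.7%) and 13 had 3 counts or fewer in all. As most of the lists were chosen for genes known in the egg or the early embryo, and 1 for genes of later tissue, these shares describe the choice of genes. In a pool of whole embryos, fewer cells of a type and less RNA per cell cannot be told apart.

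Of 13 dorsal organizer genes, 12 were present. chrd, the secreted BMP antagonist chordin, had 292, 316 and 284 CPM in replicates 1, 2 and 3, and its 3 values lay within a range of 1.11-fold. gsc, the homeobox gene goosecoid, had 46.8, 36.7 and 31.5 CPM, and noto, which specifies notochord, had 62.6, 67.8 and 42.8 CPM. The homeobox gene lhx1a, at 66.8, 31.2 and 64.5 CPM, was the 1 member at least 2-fold lower in replicate 2 than in replicate 1. dkk1b and frzb, secreted Wnt inhibitors, averaged 19.2 ± 5.53 and 51.8 ± 5.66 CPM (SD, n = 3 each). dharma, which acts in the dorsal blastula before gastrulation, had 4, 0 and 1 counts.

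Of 10 matched genes of Nodal signalling, 9 were present in every library. The cofactor gene tdgf1 had 370, 259 and 255 CPM, and gdf3, a maternally supplied TGF-beta ligand, had 263, 293 and 342 CPM. The ligand gene ndr2 had 36.5, 32.9 and 29.0 CPM, while ndr1, the other ligand, had 10, 8 and 42 counts and passed 1 CPM in replicate 3 alone, at 2.42 CPM. The feedback inhibitors lft1 and lft2 averaged 61.3 ± 11.4 and 22.2 ± 1.20 CPM (SD, n = 3 each). The endodermal and mesodermal target mixl1 had 33.3, 17.8 and 42.1 CPM.

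All 15 matched genes of ventral and BMP signalling were present. The homeobox genes ved and vox, repressors of dorsal fate, had 408, 243 and 260 CPM and 229, 124 and 139 CPM, and vent, their relative, had 73.0, 29.8 and 54.0 CPM. szl, a secreted feedback inhibitor of BMP signalling, had 62.2, 20.1 and 22.5 CPM, and foxi1, an epidermal forkhead gene, had 50.3, 27.2 and 24.4 CPM. For each of these 5 genes replicate 1 was the highest library. The ligands differed in this: bmp4 was also highest in replicate 1, at 44.9, 19.8 and 33.7 CPM, but bmp7a was highest in replicate 3, at 111, 111 and 159 CPM. The posterior homeobox gene cdx4 had 309, 392 and 223 CPM and was highest in replicate 2, the 1 library in which it stood above ved.

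The 13 matched genes of Wnt and FGF signalling of the margin were all present, and their summed level was the steadiest of the germ layer lists, at 1974, 1956 and 1898 CPM. sp5l, a direct Wnt target, averaged 485 ± 54.0 CPM, the FGF-responsive factor gene etv5b 371 ± 22.7 CPM and the FGF feedback phosphatase gene dusp6 291 ± 31.7 CPM (SD, n = 3 each). The ligand gene wnt11f2, which acts in convergence and extension, had 216, 204 and 228 CPM. spry4, an FGF antagonist, was lower in replicate 1, at 23.2, 49.99 and 40.2 CPM.

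Of 17 mesoderm genes, 16 were present. tbxta, the T-box gene of the margin and notochord, led with 588, 427 and 601 CPM, followed by tbx16, a T-box gene of trunk mesoderm, at 455, 326 and 355 CPM and snai1a, a zinc finger gene of involuting cells, at 424, 308 and 377 CPM. msgn1, a presomitic regulator, had 240, 299 and 163 CPM. tbx6, a T-box gene of paraxial mesoderm, had 8.87, 17.4 and 4.55 CPM and myf5, a myogenic factor gene, had 8.58, 11.2 and 4.83 CPM. In all 3 of msgn1, tbx6 and myf5, replicate 2 was the highest and replicate 3 the lowest. Most of the list differed from these 3 in replicate 2. Of its 16 genes with a mean of 1 CPM or more, 12 were lower and 4 higher in replicate 2 than in replicate 1. her1 (121, 80.7 and 93.0 CPM), her7 (68.6, 48.8 and 50.3 CPM), dlc (165, 137 and 129 CPM) and mespaa (27.6, 24.3 and 15.5 CPM) were highest in replicate 1. hand2, a gene of heart and lateral mesoderm, had 0 counts in every library.

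Of 8 endoderm genes, 6 were present. gata6 had 253, 191 and 195 CPM, foxa3 had 182, 145 and 164 CPM and sox32, the zebrafish determinant of endoderm, had 155, 115 and 114 CPM. sox17, a target of sox32, had 22.1, 25.2 and 16.9 CPM. foxa1 had 0, 10 and 1 counts and nkx2.7 had 12, 0 and 4 counts. Ectoderm and pluripotency genes were present in all 12 cases, with pou5f3, a POU factor of genome activation, at 860, 701 and 916 CPM. Among the SoxB1 genes, sox19a had 528, 463 and 539 CPM, sox3 had 290, 194 and 253 CPM, sox2 had 113, 122 and 115 CPM and sox19b, the maternal member, had 48.4, 55.3 and 34.3 CPM. nanog, a maternal homeobox factor, had 90.1, 40.5 and 55.5 CPM, and the anterior neural gene otx1 stood at 115 CPM in replicate 2, against 47.6 and 49.7 CPM in replicates 1 and 3.

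The enveloping layer took the largest summed share of any list, 14989.5, 15341 and 13684 CPM. It came mainly from the keratin genes krt4 (3806, 4050 and 3584 CPM), krt8 (3109, 2793 and 2551 CPM), krt5 (2557, 2878 and 2508 CPM) and krt18a.1 (2343, 2431 and 2165 CPM). The claudin gene cldne averaged 569 ± 26.4 CPM, the periplakin gene ppl 493 ± 41.9 CPM and grhl3, an epidermal transcription factor gene, 139.9 ± 20.9 CPM (SD, n = 3 each). Of 17 genes 16 were present, the exception being krt18b with 3, 14 and 16 counts.

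Of 12 genes of the yolk syncytial layer, 10 were present. apoeb, an apolipoprotein gene, had 4170, 3996 and 3299 CPM and held most of the list's sum. mttp, which loads lipid onto lipoproteins, had 436, 371 and 380 CPM and hnf4a, a nuclear receptor gene, had 114, 101 and 107 CPM. Several members were lowest in replicate 3: apoa1b had 227, 241 and 112 CPM, the transferrin gene tfa had 129, 95.7 and 49.0 CPM and apobb.1 had 39.1, 52.1 and 18.3 CPM. mxtx1, an early regulator of this layer, had 51.5, 30.9 and 46.4 CPM and its relative mxtx2 had 2.45, 1.14 and 1.32 CPM. ctslb had 0, 2 and 0 counts.

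Germ plasm and germ cell genes took few reads, 461, 314 and 420 CPM in sum, with 10 of 12 present. ddx4, the vasa helicase gene, had 139, 152 and 188 CPM, and h1m, an embryonic linker histone gene, had 174, 55.8 and 93.7 CPM. dazl had 24.2, 7.92 and 14.3 CPM, nanos3 had 14.4, 14.0 and 11.1 CPM and dnd1 had 12.7, 11.2 and 17.0 CPM, all RNA-binding proteins of germ cells. buc, which organizes germ plasm in the oocyte, had 3.04, 0.880 and 2.53 CPM.

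Among 23 oocyte transcripts, 19 were present at the shield stage. RNA left from the egg and RNA made by the embryo were not told apart in these counts. After ybx1, the list's highest members were ccnb1 (565, 484 and 408 CPM) and dnmt3bb.2 (413, 374 and 382 CPM). Egg coat genes of the zona pellucida were among those present. zp3a.2 had 66.5, 86.1 and 91.0 CPM and zp3b had 43.7, 50.1 and 71.2 CPM. zp2.3 had 27.4, 28.8 and 35.4 CPM. Each of these and zp2.2 was highest in replicate 3. zp3.2 was not, at 60.2, 58.2 and 60.1 CPM. The nucleoplasmin gene npm2b had 102, 98.9 and 126 CPM, and the maternal effect gene zar1 had 15.1, 19.6 and 27.9 CPM. Other oocyte transcripts lay near the threshold: mos, the kinase of meiotic arrest, had 25, 1 and 31 counts, slbp2 had 21, 6 and 20 counts, and the oocyte growth factor genes gdf9 and bmp15 had 3.27, 1.66 and 0.345 CPM and 1.11, 0.932 and 1.38 CPM. btg4, which acts in the clearance of maternal mRNA, had 11.8, 3.88 and 3.97 CPM.

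Genes of later differentiated tissue were the exception among the lists. Of 23 matched genes, 4 were present in every library (17.4%), beside 37.8% of all Ensembl genes, and 3 were present in some. A further 10 had 3 counts or fewer in all, a floor at which 36.4% of all Ensembl genes also lay. The median gene of the list had a mean of 0.175 CPM, at the floor, beside 0.423 CPM for the median of all Ensembl genes. The neuronal gene neurod1, the glial genes mbpa and gfap, the blood genes gata1a, hbae1.1 and hbae3, the liver gene fabp10a and the muscle genes pvalb1 and pvalb2 had 0 counts in every library, which allows up to 0.175 CPM in replicate 1. Those above the threshold were low: pdx1, a pancreatic factor gene, had 3.91, 4.97 and 7.77 CPM, myod1, a myogenic factor gene, had 1.28, 4.45 and 2.01 CPM, the collagen gene col1a1a had 2.10, 2.48 and 3.16 CPM and the muscle creatine kinase gene ckma had 1.87, 1.66 and 1.27 CPM. The pigment gene tyr (2.69, 0.983 and 3.11 CPM), the fatty acid binding protein gene fabp2 (1.93, 3.16 and 0.403 CPM) and the proneural gene neurog1 (18, 18 and 0 counts) passed 1 CPM in part of the libraries.

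**Figure D3:**
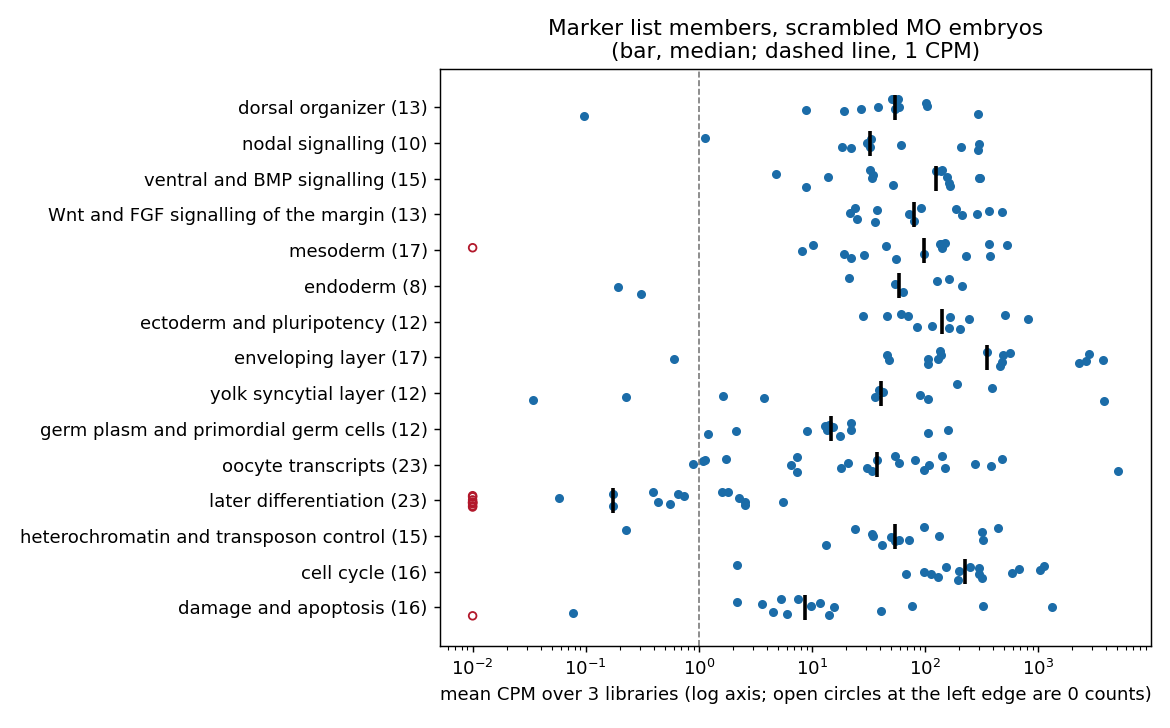
Mean CPM over the 3 scrambled MO libraries (log axis) of each matched member of the 15 marker lists (number in brackets), with the list median as a bar and a dashed line at 1 CPM; open circles mark genes with 0 counts. The enveloping layer has the highest median (353 CPM), and the median of later differentiation genes (0.175 CPM) is the only one below the line.

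Of 15 genes of heterochromatin and transposon control, 14 were present. The HP1 gene cbx5 had 519, 422 and 399 CPM, the chromatin remodeller gene atrx had 321, 295 and 361 CPM, and uhrf1, which guides maintenance DNA methylation, had 369, 262 and 339 CPM. trim33, of the TIF1 family of corepressors, had 127, 132 and 141 CPM, and its relative trim24 had 14.0, 12.1 and 14.2 CPM. The H3K9 methyltransferase genes ehmt2 and setdb1a averaged 54.8 ± 4.73 and 34.7 ± 7.17 CPM (SD, n = 3 each). hells, a helicase gene of DNA methylation, was higher in replicate 1, at 108, 52.0 and 56.6 CPM.

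All 16 cell cycle genes were present, led by mki67 (1009, 1196 and 1203 CPM) and ccnd1 (1148, 971 and 999.7 CPM). Genes of damage and apoptosis were mostly low, with a list median of 8.66 CPM. An exception was ccng1, the gene of cyclin G1, at 1314, 1218 and 1487 CPM. The ubiquitin ligase gene mdm2 had 48.4, 30.8 and 43.9 CPM, the apoptosis gene pmaip1 had 17.9, 11.5 and 13.6 CPM and the cell cycle inhibitor gene cdkn1a had 2.51, 1.81 and 2.19 CPM. Of the heat shock genes, hsp70.1 had 2, 0 and 2 counts and hsp70.3 had 1.23, 4.30 and 5.41 CPM.

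FZNFs each took few reads. Of 684, 417 were present (61.0%), 96 had 3 counts or fewer in all (14.0%), 164 had a mean between 10 and 100 CPM, and none reached 100 CPM. The first 10 held 12.0% ± 0.226 of the counts on FZNFs and the first 100 held 57.6% ± 1.46 (SD, n = 3 each), so that no few genes made up the class. g1 led with 69.0, 67.3 and 72.6 CPM in replicates 1, 2 and 3. g281 had 50.7, 64.0 and 85.8 CPM and ranked first in replicate 3 but ninth in replicate 1. g302 had 59.6, 68.0 and 72.8 CPM, and g397 had 57.8, 57.0 and 58.3 CPM, within a range of 1.02-fold. g193, g250, g190, g705, g77 and g371 averaged between 57.2 and 60.9 CPM, and the libraries of these 6 genes overlapped.

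Coding sequences of 85 FZNFs, in 7 alignments of related genes from the study's supplementary data, were used to ask how levels vary among close copies. A further 3 sequences with a missing stretch were left out. All 85 began with ATG and held no inner stop codon. They held between 3 and 12 classical fingers, with a median of 9, counted as C, 2 to 4 residues, C, 12 residues, H, 3 to 5 residues and H. Of the 85, 50 were present, beside 417 of all 684 FZNFs (61.0%). The median level over all 85 was 5.20 CPM, beside 3.21 CPM over the 684. Within each alignment, levels per kilobase (kb) of coding sequence spanned a wide range. In alignment 2, whose 10 members shared from 97.1% to 99.0% of their aligned bases, 5 members were among the first 20 FZNFs and 1, g553, ranked 480. In alignments 1 and 5, 4 of 11 members each were present, and the medians were 1.45 and 0.930 CPM.

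The first 108 coding bases of 6 members of alignment 2, counted from the A of the start codon, are given here because copies at very different levels were nearly alike in them. Capitals mark the bases that differ from g302.
g302: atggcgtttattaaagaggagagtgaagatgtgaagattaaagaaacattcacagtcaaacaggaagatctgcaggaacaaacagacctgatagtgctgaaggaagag
g397: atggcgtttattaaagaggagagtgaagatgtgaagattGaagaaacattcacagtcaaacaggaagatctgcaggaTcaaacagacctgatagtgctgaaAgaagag
g338: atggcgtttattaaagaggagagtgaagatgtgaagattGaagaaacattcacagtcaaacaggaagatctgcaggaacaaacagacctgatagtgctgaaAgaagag
g449: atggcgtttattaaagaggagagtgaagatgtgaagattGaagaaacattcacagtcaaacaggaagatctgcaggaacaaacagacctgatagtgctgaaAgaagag
g45: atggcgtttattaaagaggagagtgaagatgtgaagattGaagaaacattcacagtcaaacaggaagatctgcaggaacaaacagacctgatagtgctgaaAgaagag
g553: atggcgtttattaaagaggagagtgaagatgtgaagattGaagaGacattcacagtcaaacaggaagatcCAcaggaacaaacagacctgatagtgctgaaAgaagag

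g338, g449 and g45 were identical to one another over these bases. Over 1146 aligned coding bases g45 was 98.9% identical to g338 and 99.0% identical to g449. g338 had 38.8, 34.8 and 43.7 CPM, g449 had 7.94, 5.33 and 6.79 CPM and g45 had 3.21, 3.11 and 3.68 CPM in replicates 1, 2 and 3, so that the 3 genes did not overlap in any library. Per kb of coding sequence, they averaged 34.1 ± 3.89, 5.44 ± 1.06 and 2.91 ± 0.268 CPM per kb (SD, n = 3 each). This scale leaves out the length of untranslated regions, which the paper's FZNF models include, so it corrects for length only in part. g302, with 2 differences from g45 in the printed stretch, averaged 58.2 ± 5.83 CPM per kb. The start of g553, with 5 differences from g302, belonged to the member with the fewest reads, 20, 9 and 17 counts. However, g634, a member not printed here, also had 5 differences from g302 and had 428, 414 and 324 counts. The number of differences in this stretch therefore did not order the levels. Since reads that map to several places were kept, levels of single copies this alike are uncertain.

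**Figure D4:**
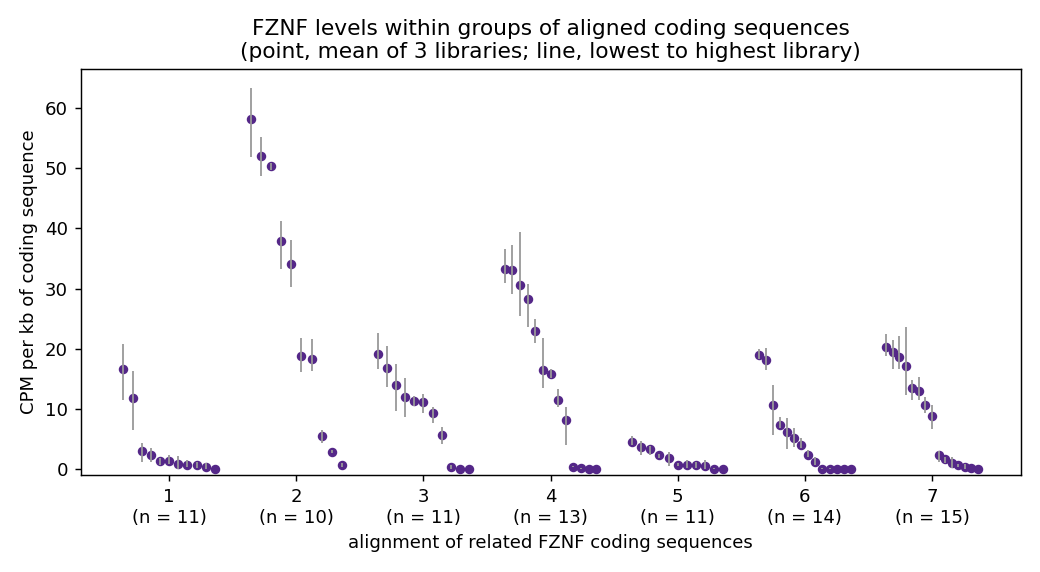
CPM per kb of coding sequence for 85 FZNFs in 7 alignments of related sequences; points are means of the 3 scrambled MO libraries and lines run from the lowest to the highest library. Members of alignment 2 run from 58.2 to 0.760 CPM per kb, and in the other alignments the lowest members lie at or near 0.

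TE families were present in 1580 of 2384 cases (66.3%), and 142 had 3 counts or fewer in all (5.96%). Their reads were concentrated: the first 10 families held 33.4% ± 3.32 of the TE counts (SD, n = 3). In their classes the first 10 FZNFs held 12.0% and the first 10 Ensembl genes 8.24%, but the classes differ in size. There were 684 FZNFs and 32099 Ensembl genes, and the first 100 Ensembl genes held 27.7%. Of the first 10 families 9 were LTR elements. The share of families present differed by class, at 398 of 875 LTR, 931 of 1118 DNA, 211 of 343 LINE, 13 of 15 SINE and 16 of 16 RC families. LTR elements therefore took 4.12% ± 0.720 of the counts (SD, n = 3) while 45.5% of their families were present.

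Endogenous retroviruses of the ERV1 type took 35.6% of the TE counts, and 60 of their 78 families were present. ERV1-N3-I_DR, the internal part of an endogenous retrovirus, had the most reads of any family, at 7706, 13216 and 8031 CPM in replicates 1, 2 and 3. Its long terminal repeats ERV1-N3-LTR_DR (2267, 3963 and 2363 CPM) and ERV1-N3B-LTR_DR (1212, 2053 and 1267 CPM) shared this pattern, with replicate 2 high and replicates 1 and 3 close together. BHIKHARI_LTR, the terminal repeat of an element known for its activity in the mesendoderm of the zebrafish gastrula, had 4949, 4857 and 6034 CPM, and its internal part BHIKHARI_I-int had 2724, 1966 and 2938 CPM. The 10 families named BHIKHARI took 9696, 8428 and 11023 CPM in sum. Their order across libraries, highest in replicate 3 and lowest in replicate 2, differed from that of ERV1-N3. ERV2_DR-I (1993, 4780 and 4131 CPM) and ERV1-N6-I_DR (1013, 2002 and 1929 CPM) were low in replicate 1 alone, while ERV1-N4-I_DR averaged 1705 ± 97.4 CPM (SD, n = 3). ERV1-4_DR-I had 906, 1574 and 988 CPM.

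Gypsy elements, the largest LTR superfamily with 493 families, took 0.308% ± 0.0465 of the counts (SD, n = 3), and 194 were present. Among DNA transposons, ANGEL (1198, 1362 and 1398 CPM), EnSpm-N61_DR (1000.5, 864 and 918 CPM) and Kolobok-N1_DR (885, 892 and 981 CPM) led. The CMC-EnSpm superfamily took 0.763% ± 0.0403 of the counts (SD, n = 3). Among LINEs, L2-1_DR had 602, 1061 and 934 CPM, Rex1-31_DRe had 309, 297 and 341 CPM and EXPANDER1_DR had 177, 195 and 199.5 CPM. The leading SINEs were HE1_DR1 (539 ± 31.2 CPM), SINE2-4_DR (267 ± 17.1 CPM) and SINE2-3_DR (248 ± 29.4 CPM), and the leading Helitrons were Helitron-2_DR (1030 ± 59.5 CPM), Helitron-1_DR (357 ± 67.3 CPM) and Helitron-4_DR (67.6 ± 2.74 CPM; SD, n = 3 each). A family's count sums all its copies, whether transcribed on their own or within other transcripts, and these were not told apart.

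The spread between libraries was measured over features with a mean of 1 CPM or more. edgeR's common dispersion, fitted to the 3 libraries with an intercept only, gave a biological coefficient of variation of 0.312 for 13700 Ensembl genes, 0.322 for 471 FZNFs and 0.282 for 1760 TE families. At a mean of 10 CPM or more it was 0.210, 0.203 and 0.197 for the 3 classes, so that much of the spread lay in features with few reads. The libraries agreed in rank, with Spearman's rho between 0.952 and 0.961 over the 13700 genes, which share a mapping, a counting and their own length. Chi-square per degree of freedom between pairs of libraries was 30.2 or more, far above sampling noise, so that no 2 libraries were copies of one.

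Replicates 2 and 1, collected on the same day, were not the most alike pair. Replicate 2 was at least 2-fold above or below replicate 1 for 2279 of 13700 genes (16.6%), replicate 3 above or below replicate 1 for 1786 (13.0%) and replicate 3 above or below replicate 2 for 1952 (14.2%). For FZNFs these shares were 16.3%, 15.7% and 13.2% of 471, and for TE families 14.8%, 13.7% and 10.6% of 1760. Genes at least 2-fold apart between any 2 libraries numbered 3647. Each was assigned to the library farther from the middle of its 3 values, even where the gaps on both sides were nearly equal. The library so assigned was most often replicate 2 on the low side (967 genes). Among the 425 such TE families it was most often replicate 1 on the low side (167 families), and likewise among the 126 FZNFs (41). Replicate 2 had the largest total of counts but the fewest Ensembl genes with a count, 18415, against 19339 and 19529 in replicates 1 and 3. The part of this in the low values of replicate 2 was not tested.

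The steadiest genes with a mean of 100 CPM or more were ccnf, a cyclin of the G2 phase (120.4, 120.7 and 120.9 CPM), kifc1, a spindle kinesin gene (264, 266 and 265 CPM), C19H6orf62 (304, 302 and 304 CPM) and sumo3a, a SUMO modifier gene (1295, 1296 and 1310 CPM). At the other end, eps8l3b, an actin regulator of the EPS8 family, had 30, 991 and 1301 counts, the widest range among genes with a mean of 10 CPM or more. PRKCB, a protein kinase C gene, had 527, 52 and 79 counts and was high in replicate 1 alone, and si:dkey-62k3.5 had 297, 27 and 272 counts and was low in replicate 2 alone. Among the 8 widest genes, 5 carried no symbol. ENSDARG00000115988 had 248, 252 and 6431 CPM and ENSDARG00000115978 had 458, 407 and 8057 CPM, which made the second of them the fourth gene of replicate 3 and the 350th of replicate 2. Of 6 genes with a mean of 100 CPM or more and a range of 5-fold or more, all were highest in replicate 3, and they took 0.111%, 0.113% and 1.87% of the counts in replicates 1, 2 and 3. The 4 without a symbol took 0.105%, 0.0941% and 1.81%. The part of the collection day in this was not tested.

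The FZNFs with the widest range were g84 (6.13, 16.1 and 19.6 CPM), g389 (7.06, 15.3 and 17.7 CPM), g499 (7.005, 13.8 and 17.5 CPM) and g65 (23.1, 9.73 and 18.1 CPM). The first 3 were low in replicate 1 and g65 was low in replicate 2. Among TE families, Gypsy90-I_DR had 36.1, 2.17 and 29.5 CPM. ERV1-3-I_DR had 55.6, 363 and 145 CPM, and its terminal repeat ERV1-3-LTR_DR, with 2.98, 16.9 and 10.7 CPM, had the same order of libraries. L1-66_DR, a LINE, had 10.4, 33.7 and 7.08 CPM and was high in replicate 2 alone.

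Some gene groups moved between libraries together. All 13 mitochondrial genes were higher in replicate 3 than in replicate 2, and 12 of 13 were higher in replicate 3 than in replicate 1, with median log2 ratios of 0.24 and 0.50, beside 0.02 and -0.07 over all 13700 genes. Their summed share was 3.25%, 2.66% and 2.15% in replicates 3, 2 and 1. Of all 13700 genes, 7039 were higher in replicate 3 than in replicate 2 and 6044 were higher in replicate 3 than in replicate 1. Of 78 ribosomal protein genes, 77 were lower in replicate 3 than in replicate 2 (median log2 ratio -0.38), and 70 were higher in replicate 2 than in replicate 1 (0.18). For the same 2 comparisons, 6661 and 6042 of all 13700 genes were lower and higher, respectively. The minichromosome maintenance genes mcm2 to mcm7, which form the replicative helicase, had median log2 ratios of -0.77 for replicate 2 over replicate 1 and -0.78 for replicate 3 over replicate 1, over 7 identifiers of which 2 carry the symbol mcm6. All 7 were lower in replicate 2 than in replicate 1, and 6 of 7 were lower in replicate 3, the exception being mcm6 ENSDARG00000033231 (70.0, 68.0 and 90.5 CPM in replicates 1, 2 and 3). The lower genes included mcm5 (307, 144 and 145 CPM) and mcm2 (104, 38.5 and 60.4 CPM), while mcm7 stayed within a range of 1.08-fold (616, 602 and 571 CPM) and mcm4 had 239, 175 and 229 CPM. Among all 13700 genes, 7658 were lower in replicate 2 than in replicate 1 and 7656 were lower in replicate 3 than in replicate 1. The mcm group was singled out after its values were seen.

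Of the marker lists, mesoderm genes had median log2 ratios of -0.39 both for replicate 2 over replicate 1 and for replicate 3 over replicate 1, endoderm genes -0.37 and -0.38, and ventral and BMP genes -0.26 and -0.41. Nodal signalling genes had -0.50 for replicate 2 over replicate 1 and -0.19 for replicate 3 over replicate 1. Not all lists were lower in this way. For the same 2 ratios, dorsal organizer genes were at 0.11 and -0.07 and Wnt and FGF genes at -0.08 and 0.07. Ectoderm and pluripotency genes were at -0.04 and -0.01, and enveloping layer genes at 0.07 and -0.11. Oocyte transcripts and germ cell genes were at -0.30 and -0.36 for replicate 2 over replicate 1, and at -0.01 and 0.00 for replicate 3 over replicate 1. The oocyte list was not uniform in this. Of its 22 genes with a mean of 1 CPM or more, 16 were lower and 6 higher in replicate 2 than in replicate 1. Over all 13700 genes, 7658 were lower and 6042 higher in the same comparison. zp3a.2, zp3b, zp2.3 and zar1 were lowest in replicate 1, while zp2.2 and zp3.2 were lowest in replicate 2. The list's summed level, 7097, 7469 and 6933 CPM in replicates 1, 2 and 3, came mostly from ybx1 (4937, 5605 and 4906 CPM). Yolk syncytial layer genes were at -0.61 for replicate 3 over replicate 1. Over the 193 list genes with a mean of 1 CPM or more, 25 were at least 2-fold lower and 4 at least 2-fold higher in replicate 2 than in replicate 1 (13.0% and 2.07%), beside 10.3% and 6.31% of all 13700 genes. Replicate 3 was at least 2-fold lower than replicate 1 for 14 of these genes and higher for 2 (7.25% and 1.04%), beside 7.53% and 5.51% of all genes. It was lower than replicate 2 for 9 and higher for 9 (4.66% each), beside 6.25% of all genes lower and 1096 of 13700 higher. These ratios describe 3 libraries. The part of the collection day in those of replicate 3 was not tested.

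**Figure D5:**
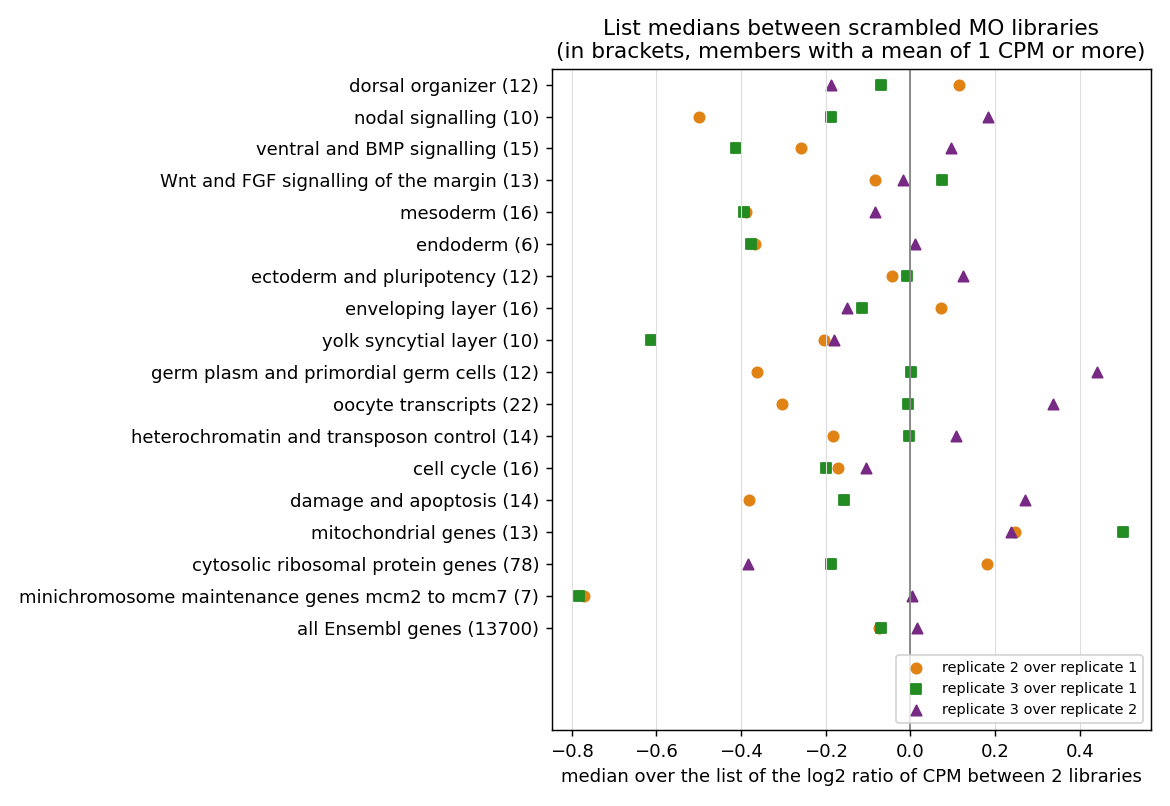
Median log2 ratio of CPM between 2 scrambled MO libraries over each list (members with a mean of 1 CPM or more, number in brackets), 1 marker per pair of libraries; the list of later differentiation, with 6 such members, is not drawn. The mcm genes lie at -0.77 and -0.78 for replicates 2 and 3 over replicate 1 and mitochondrial genes at 0.25 and 0.50, while the medians over all 13700 Ensembl genes lie between -0.07 and 0.02.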

How the data were processed

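The 3 scrambled MO libraries were strand-specific, poly(A)-selected and sequenced as paired 150-base reads. The authors checked reads with FastQC 0.11.9 and mapped them with STAR 2.7.5a to GRCz11, keeping reads that map to several places. TEcount (TEtranscripts) then assigned reads to Ensembl genes, FZNF models built in the study and a TE annotation. For the Ensembl release and the strand setting, no source used here gives a value. The deposited values are raw counts per feature and were used as deposited. Totals per library were 17131612, 19322041 and 17379435 counts.

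CPM was the count divided by the library total. Symbols came from a table of gene identifiers (28845 of 32099 matched), with the spelling of that table unless RefSeq lists the lower-case form. Dispersions were fitted with edgeR 4.0.16 (R 4.3.3), a step checked on counts simulated with known dispersions. No groups were compared and no p was computed, and the replicates are separate pools, so that the SD covers pools, not single embryos. For ratios, counts under 3 were set to 3. Named features were the 15, 10 and 10 with the most reads (Ensembl genes, FZNFs, TE families), the highest 3 of each TE class, the widest 8, 4 and 4 with a mean of 10 CPM or more, the steadiest 4 genes with a mean of 100 CPM or more, and list members at 1 CPM or more in any library; other list members named, and mcm genes, were picked after their values were seen. Members and lists were chosen with earlier results of these data known.

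Alternatives were presence thresholds of 0.5 and 5 CPM, TMM and DESeq2 1.42.0 size factors, the sum of Ensembl genes as library size, mitochondrial genes left out, LTR parts summed, other filters on the spread and each replicate left out. A ranking per kb of coding sequence was not run for Ensembl genes, since no lengths were used here.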

Additional observations from a re-analysis of the deposited data

How the results depend on the processing

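Of 84 alternative values, 70 stayed within 1.5 times the reported count or within 1 SD of the reported share. Some of the 70 could not have moved. Leaving out 1 of 3 libraries shifts a mean share by less than 1 SD whatever the values are. At 1 CPM, TMM and DESeq2 library sizes gave the same cut-offs in whole counts as the library totals. The numbers present under these 2 settings therefore had to match those reported. With a threshold of 5 CPM the number of FZNFs present was 227, against 417 at 1 CPM. TE families present fell from 1580 to 1054 and Ensembl genes from 12126 to 8401 at that threshold. These 2 falls lay within the 1.5-fold limit but were not small. A further alternative kept only features with a mean of 10 CPM or more. Those at least 2-fold apart between any 2 libraries were 574 of 7316 Ensembl genes, 10 of 164 FZNFs and 51 of 884 TE families. At a mean of 1 CPM or more they were 3647 of 13700, 126 of 471 and 425 of 1760. The number can only fall by the construction of the filter, but the share fell as well. With no filter and a pseudocount of 1 the number for TE families was 281. Leaving out each replicate in turn, which leaves 1 pair of libraries, gave between 1819 and 2249 Ensembl genes, between 61 and 76 FZNFs and between 190 and 252 TE families. Without replicate 3 the biological coefficient of variation of Ensembl genes was 0.339 and without replicate 2 it was 0.294. Leaving out the 6 Ensembl genes with a mean over 100 CPM and over 5-fold apart between libraries, an alternative chosen after seeing the data, changed the TE share to 9.39%, against 9.32%. Of the first 15 Ensembl genes, between 13 and 14 stayed among the first 15 when a replicate was left out. No paired analysis was possible because only scrambled MO libraries were described and no result came from a test between groups. With 3 libraries, a collection day held by 1 of them cannot be told apart from that library, and genes under 0.155 to 0.175 CPM cannot be told from absent ones at this depth. The ranking per kb of coding sequence was not run for Ensembl genes.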
